A study of Mus musculus with 14 samples.

Results

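The loci described were 3 windows of the mouse genome (build mm9) that hold 4 genes: the Lama1 window at chr17:68030000-68180000, the Col4a1/Col4a2 window at chr8:11180000-11460000 and the Dab2 window at chr15:6230000-6400000. The members were all 200-bp bins of these windows, chosen by position alone, together with the peaks that overlap them. There were 750 bins in the Lama1 window, 1400 in the Col4a1/Col4a2 window and 850 in the Dab2 window, 3000 in all. Of these, 2503 held at least 1 CpG count, out of 7282466 such bins in the series. No mm9 annotation was used, so bins are given by position only, without assignment to exons, introns or promoters.

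The libraries were bisulfite-sequenced ChIP (ChIP-BS-seq), in which DNA bound to a histone mark is pulled down and then bisulfite-converted, so that each CpG count is read as methylated (5mC) or unmethylated and the number of CpG counts in a bin follows the occupancy of the mark and also the CpG density of the bin. All cells were R1 mouse embryonic stem cells or made from them. ESCs were kept for 2 days without the 2 inhibitors PD0325901 and CHIR99021 (2i) in medium with LIF. Differentiated cells (RA) had 4 days of 1 µM retinoic acid without LIF. Extraembryonic endoderm (XEN) cells had 9 days of 0.1 µM retinoic acid with 10 ng/mL Activin A. H3K4me1 and H3K27ac had 1 library each in ESCs and in RA cells and 2 replicates each in XEN cells, 8 libraries in all, and 4 peak lists covered ESCs and RA cells. Whether the XEN replicates came from separate cultures was not given, so their spread may be technical, and in bulk libraries fewer marked cells and less signal per cell cannot be told apart.

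Lama1 encodes the α1 chain of laminin, and Col4a1 and Col4a2 each encode an α chain of type IV collagen. Type IV collagen forms the network that, with laminin, builds basement membranes. Parietal endoderm, an extraembryonic endoderm lineage, is known for depositing a thick basement membrane (Reichert's membrane) rich in these chains. Dab2 encodes an endocytic adaptor protein that is used as a marker of extraembryonic endoderm. H3K4me1 marks primed and active enhancers, H3K27ac marks active enhancers and promoters, and CpG-rich promoters are as a rule unmethylated whatever the cell type.

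RefSeq promoter sequences (GRCm38.p6, 250 bases before to 50 after the annotated start) were found for 3 of the 4 genes (Col4a1, Col4a2 and Dab2). They are shown because the highest H3K27ac tiles of RA cells in the Col4a1/Col4a2 and Dab2 windows were low in 5mC, and the sequences show how far the genes differ in CpG content. Capitals mark CpG dinucleotides, each sequence runs 5′ to 3′ on the strand of the gene, and the GRCm38 positions cannot be laid over the mm9 bins without a conversion, which was not made.
Col4a1, chr8:11312777-11313076, minus strand: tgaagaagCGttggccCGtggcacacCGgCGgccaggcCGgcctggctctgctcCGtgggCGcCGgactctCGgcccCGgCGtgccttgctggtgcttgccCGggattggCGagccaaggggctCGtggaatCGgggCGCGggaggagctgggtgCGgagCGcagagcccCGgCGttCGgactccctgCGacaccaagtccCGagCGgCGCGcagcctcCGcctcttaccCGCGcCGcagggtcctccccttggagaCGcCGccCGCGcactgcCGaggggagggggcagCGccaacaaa
Col4a2, chr8:11312555-11312854, plus strand: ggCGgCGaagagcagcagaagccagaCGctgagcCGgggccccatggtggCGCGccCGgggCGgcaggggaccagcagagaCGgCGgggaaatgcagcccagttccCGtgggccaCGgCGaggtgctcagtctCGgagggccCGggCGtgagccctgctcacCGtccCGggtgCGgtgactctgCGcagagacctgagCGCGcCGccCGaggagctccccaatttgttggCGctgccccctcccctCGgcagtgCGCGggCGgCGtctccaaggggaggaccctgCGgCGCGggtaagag
Dab2, first promoter, chr15:6299539-6299838, plus strand: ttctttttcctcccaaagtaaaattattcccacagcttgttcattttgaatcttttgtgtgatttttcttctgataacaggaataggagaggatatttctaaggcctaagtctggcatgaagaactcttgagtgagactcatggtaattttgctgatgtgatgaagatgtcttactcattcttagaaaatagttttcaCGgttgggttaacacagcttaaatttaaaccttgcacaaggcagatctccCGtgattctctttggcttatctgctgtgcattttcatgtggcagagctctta
Dab2, second promoter, chr15:6386498-6386797, plus strand: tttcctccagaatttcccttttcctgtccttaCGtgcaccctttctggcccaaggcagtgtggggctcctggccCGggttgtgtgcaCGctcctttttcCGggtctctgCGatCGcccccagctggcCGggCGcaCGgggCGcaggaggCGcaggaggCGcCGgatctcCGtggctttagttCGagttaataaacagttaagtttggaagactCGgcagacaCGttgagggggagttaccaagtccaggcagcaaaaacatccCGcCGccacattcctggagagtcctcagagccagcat
The Col4a1 and Col4a2 sequences lie on opposite strands and share 78 bases, so the pair starts from a single stretch of DNA. The Col4a1 promoter held 37 CpGs and the Col4a2 promoter 33, and 5.58% and 8.56% of the 32851 promoters in the table held at least as many. The first Dab2 promoter held 2 CpGs and the second 19, against a median of 7 over all promoters.

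The libraries held from 12147115 to 58803653 CpG counts. For the XEN libraries, file names and sample labels swap the 2 marks. A check on bins under H3K27ac peaks of ESCs that lie under no H3K4me1 peak went against the labels: such bins took 1.29% of the ESC and 2.16% of the RA H3K4me1 counts, 13.9% and 13.8% of the H3K27ac counts, but 15.8% and 15.0% of the counts of the XEN libraries labelled H3K4me1 and 2.40% and 2.42% of those labelled H3K27ac. Bins under H3K4me1 peaks of ESCs only took 14.7% and 15.2% of the XEN counts labelled H3K4me1 and 25.4% and 24.9% of those labelled H3K27ac. In the ESC libraries these bins took 30.5% for H3K4me1 and 10.4% for H3K27ac. With peaks of RA cells, H3K27ac-only bins took 17.3% and 16.6% of the XEN counts labelled H3K4me1 and 2.29% and 2.42% of the others. These checks went against the labels too. The labels were still followed and each XEN library is named by its label. Window ratios and counts of 5mC calls across cell states are given under both pairings, and counts of bins past 2-fold and single bins by label only. The tables of XEN list only bins of at least 4 counts, so an unlisted bin held fewer than 4 and was taken as 0.

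Occupancy of all 3 windows was higher in RA cells than in ESCs for both marks. CpG counts scaled to 1000000 per library (CPM) over the 3 windows were 4.83-fold higher in RA cells than in ESCs for H3K4me1 and 8.67-fold higher for H3K27ac, with bins under 4 counts set to 0. The ratio was largest at the Dab2 window for H3K4me1 (10.9-fold) and at the Col4a1/Col4a2 window for H3K27ac (10.1-fold). With 1 library per state these ratios have no replicate check. The median ratio of all bins covered in both states was 0.25 on the log2 scale for H3K4me1 and 0.14 for H3K27ac, so the windows differed by more than the libraries as a whole.

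The CPM of each window are given next as deposited, with bins under 4 counts kept in ESCs and RA cells but absent from the XEN tables, so they differ from the values behind the ratios above, most at Dab2 in ESCs.

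At Lama1, the H3K4me1 library held 142 CPM of the window in ESCs and 546 in RA cells, and the XEN libraries labelled H3K4me1 held 542 and 496. The H3K27ac library held 94.9 CPM in ESCs and 574 in RA cells, and the XEN libraries labelled H3K27ac held 732 and 683. In CPM, RA and XEN cells were thus both far above ESCs and closer to each other than to ESCs. For H3K4me1 by label this order depends on the scaling. On the log2 scale the XEN ratio of the window was 1.93 over ESCs and -0.071 over RA cells. The median ratios of covered bins for the 2 XEN libraries were 1.77 and 1.41 over ESCs and 1.13 and 0.82 over RA cells.

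At Col4a1/Col4a2, H3K4me1 was 236 CPM in ESCs and 1059 in RA cells, and the XEN libraries labelled H3K4me1 held 1242 and 1166. H3K27ac was 129.5 CPM in ESCs and 998 in RA cells, and the XEN libraries labelled H3K27ac held 2327 and 2005. The collagen window, the widest of the 3, had the largest sum in every library, and its 2 highest values were those of the XEN libraries labelled H3K27ac.

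At Dab2, H3K4me1 was 29.1 CPM in ESCs and 262 in RA cells, and the XEN libraries labelled H3K4me1 held 289.5 and 276. H3K27ac was 43.9 CPM in ESCs and 232 in RA cells, and the XEN libraries labelled H3K27ac held 275 and 298. With bins under 4 counts set to 0, ESCs held 23.6 CPM of H3K4me1 and 28.2 of H3K27ac, and RA cells 257 and 221. All 6 libraries of RA and XEN cells fell in a narrow band above both ESC libraries, as the plot of window values per library shows.

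**Figure D1:**
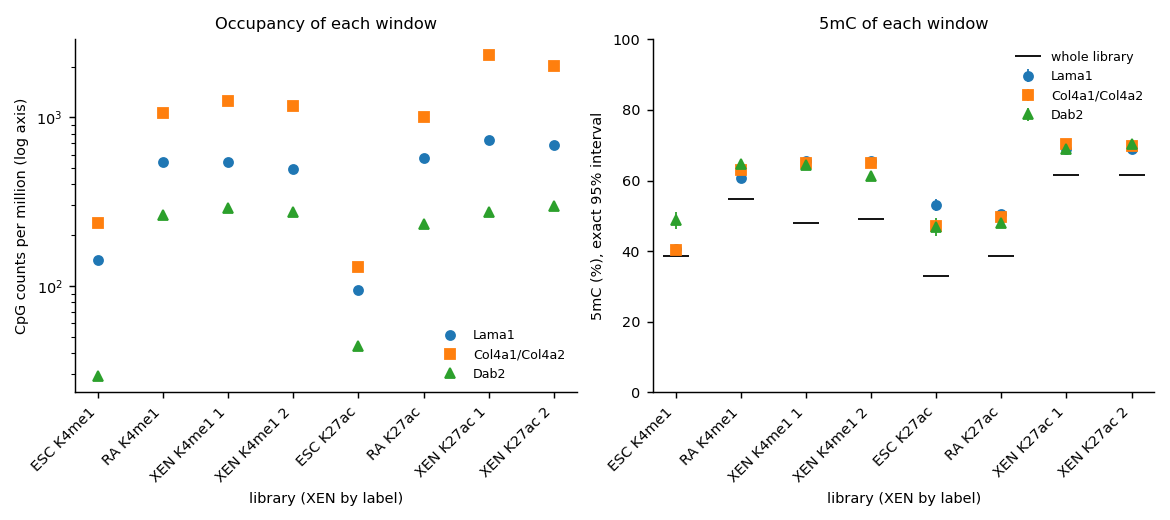
Left, CPM (log axis) of the 3 windows in each of the 8 libraries, with XEN libraries under their labels. Right, 5mC (%) of the same windows with exact 95% intervals and the level of the whole library as a bar. Each window sits higher in the 6 RA and XEN libraries than in the 2 ESC libraries on the left, for example 29.1 against 262 CPM for H3K4me1 at Dab2.

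Taken by their labels, XEN libraries exceeded ESCs 5.21-fold for H3K4me1 and 15.3-fold for H3K27ac over the 3 windows. With the marks of the file names these ratios were 8.20-fold and 9.73-fold. Scaled by the median ratio of covered bins, the H3K4me1 value by label was 0.80 on the log2 scale in place of 2.38. Between XEN and RA cells the ratios over the 3 windows were above 1 in CPM under both pairings, and the direction depended on the scaling and, at Lama1, on the pairing. By label the ratio was 1.08-fold for H3K4me1 and 1.77-fold for H3K27ac, and by file name 1.70-fold and 1.12-fold. By label, the ratio for H3K4me1 of all 3 windows became -0.87 on the log2 scale when libraries were scaled by the median ratio of covered bins in place of 0.11. The totals of ESCs and RA cells include bins under 4 counts, which the XEN tables lack, and this raises the ratios of XEN in CPM. Bins of at least 4 counts held 913268 per 1000000 counts in RA H3K4me1 and 826824 in RA H3K27ac. With totals over such bins only, the H3K4me1 ratio of XEN over RA by label was slightly below 1. The median ratio of covered bins was 1.77 and 1.41 on the log2 scale for the 2 XEN libraries labelled H3K4me1 over ESC H3K4me1, and 0.35 and -0.03 for those labelled H3K27ac over ESC H3K27ac. In CPM, XEN cells were above ESCs at every window under both pairings, while no direction against RA cells held under both pairings at Lama1, where the H3K4me1 ratio was 0.952-fold by label and 1.30-fold by file name.

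Bins were also counted past a plain 2-fold difference of CPM, with no test, where either library had at least 30 counts. Bins so enter through the library where they are high: for H3K27ac all 600 bins entered had 30 counts in RA cells and only 19 had them in ESCs, so the counts are largely set by the filter and are given as a description beside the same share over the genome. For H3K27ac, 591 of 600 such bins in the 3 windows were over 2-fold higher in RA cells than in ESCs (206 of 210 at Lama1, 322 of 326 at Col4a1/Col4a2 and 63 of 64 at Dab2), against 31.9% of all bins of the genome, and 0 were over 2-fold lower, against 30.7%. For H3K4me1, 969 of 1130 were higher, against 26.4%, and 24 were lower, against 39.6%. By label, 1136 of 1152 bins were higher in the XEN libraries labelled H3K27ac than in ESCs, against 59.7%, and 15 were lower, against 26.7%. In those labelled H3K4me1, 257 of 390 were higher, against 11%, and 14 were lower, against 61.3%. Against RA cells, 753 of 1225 bins were over 2-fold higher in the XEN libraries labelled H3K27ac, against 55.5%. Bins past 2-fold were not counted with the file-name marks, under which the H3K27ac ratio of XEN over RA was 1.21-fold at Col4a1/Col4a2 in place of 2.18-fold and 0.907-fold at Lama1 in place of 1.24-fold. By label 71 were lower, against 19.1%. In those labelled H3K4me1, 88 of 1120 were higher, against 11.3%, and 175 were lower, against 48.6%. The window ratio of H3K4me1 behind these counts was 1.08-fold by label and 1.70-fold by file name, and the balance of higher and lower bins under the latter was not counted.

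The peak lists covered more of each window in RA cells than in ESCs. In ESCs the H3K27ac peaks covered 15.7% of the Lama1 window, 5.79% of the Col4a1/Col4a2 window and 1.58% of the Dab2 window. In RA cells they covered 98.6%, 94.5% and 46.9%. H3K4me1 peaks went from 38.8% to 95.6% at Lama1, from 32.9% to 92.3% at Col4a1/Col4a2 and from 6.58% to 58.2% at Dab2.

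The widest peaks of RA cells in each window, called domains here, were among the widest of their lists. The H3K27ac peak of RA cells at chr8:11194072-11428331, over Col4a1/Col4a2, was 234 kb wide and ranked 1 of 102600 both by score and by width. The Lama1 peak at chr17:68025980-68177862 was 152 kb wide and ranked 3 by score and 2 by width. The Dab2 peak at chr15:6333587-6401414 was 67.8 kb wide and ranked 28 by score and 29 by width. The highest-scoring ESC H3K27ac peaks of the same windows ranked 9237, 17838 and 34859 of 100469.

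H3K4me1 of RA cells formed domains of the same order. At Col4a1/Col4a2 there were 2 of them, at chr8:11209349-11312097 (103 kb) and chr8:11314175-11425671 (111 kb), ranked 3 and 4 of 158989 by score. The 5-kb tile that spans the gap between them had the highest H3K27ac value of the window in RA cells. The Lama1 domain at chr17:68047304-68159585 (112 kb) ranked 6 and the Dab2 domain at chr15:6332772-6401421 (68.7 kb) ranked 16. The best ESC H3K4me1 peaks ranked 815 of 145840 at Lama1 (chr17:68036960-68067100), 4768 at Col4a1/Col4a2 (chr8:11379375-11388233) and 40469 at Dab2 (chr15:6335038-6338529).

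**Figure D2:**
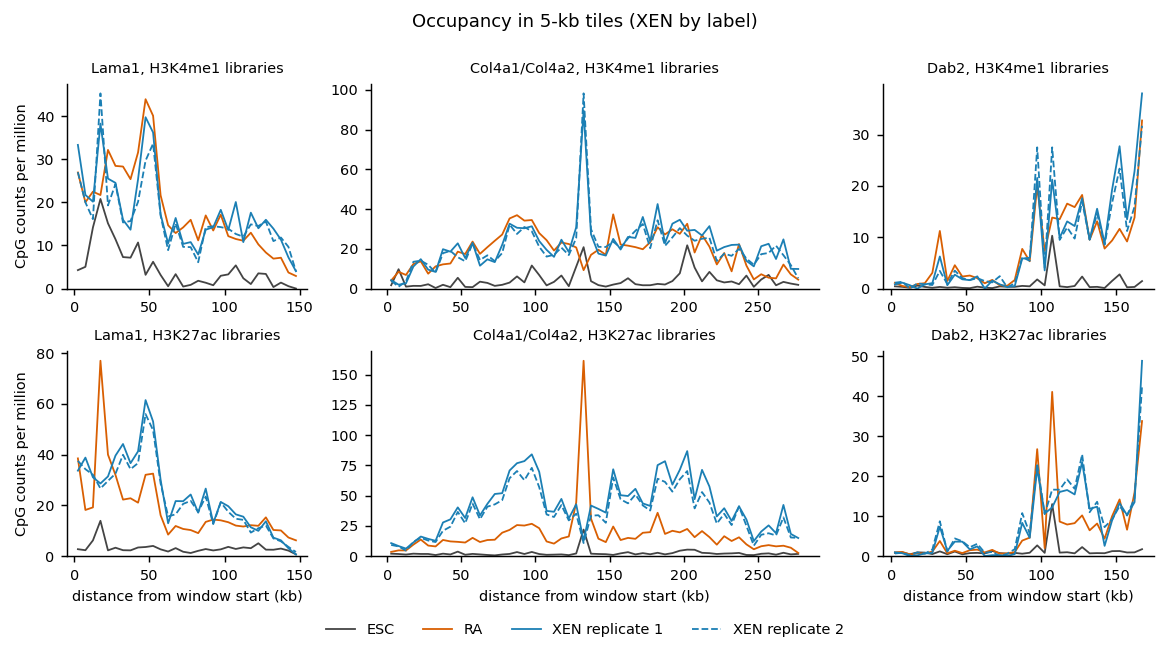
CPM in 5-kb tiles along each window, by distance from the window start (kb), for libraries labelled H3K4me1 (top) and H3K27ac (bottom), with 1 line per library. The tile at 132.5 kb of Col4a1/Col4a2 reaches 162 CPM in the RA H3K27ac library and 89.7 and 98.3 CPM in the XEN libraries labelled H3K4me1.

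In 5-kb tiles, each window held a point where the 2 marks parted. At Col4a1/Col4a2, the tile at chr8:11310001-11315000 held 162 CPM in the RA H3K27ac library and 9.28 CPM in the RA H3K4me1 library. In ESCs the same tile held 21.9 CPM of H3K27ac and 20.9 CPM of H3K4me1. The XEN libraries labelled H3K4me1 held 89.7 and 98.3 CPM and those labelled H3K27ac 12.5 and 10.8 CPM, so the library labels and the RA pattern ran opposite at this tile too.

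At Lama1, the tile at chr17:68045001-68050000 held 77.0 CPM of H3K27ac and 21.7 CPM of H3K4me1 in RA cells, and 13.9 and 20.8 CPM in ESCs. The XEN libraries labelled H3K4me1 held 38.3 and 45.3 CPM and those labelled H3K27ac 28.6 and 26.6 CPM. H3K4me1 peaked farther into the Lama1 window, at chr17:68075001-68080000, with 43.9 CPM in RA cells against 3.20 CPM in ESCs.

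At Dab2, the tile at chr15:6335001-6340000 held 41.1 CPM of H3K27ac and 13.8 CPM of H3K4me1 in RA cells, and 13.0 and 10.3 CPM in ESCs. It was the highest tile of the window in both ESC libraries. The tile at chr15:6325001-6330000 was low in ESCs, with 2.67 CPM of H3K27ac and 1.79 CPM of H3K4me1, and reached 26.8 and 20.0 CPM in RA cells.

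Within XEN cells, occupancy of the 2 labels was tested per bin over 352794 bins with edgeR's quasi-likelihood test and Benjamini-Hochberg adjustment (2 libraries per label, at least 60 summed counts). In the 3 windows 1304 bins were tested, 32 were higher in the libraries labelled H3K27ac, against 6.48% of all bins, and 58 were lower, against 12.7%. With library totals in place of TMM factors the split was 246 higher and 34 lower, so the balance of the directions rests on the scaling. With the replicate number as a block 0 were higher and 17 lower, and without either library labelled H3K27ac 0 were higher. Of the 58 bins that were lower, 25 lay at Col4a1/Col4a2 (845 tested), 20 at Dab2 (142 tested) and 13 at Lama1 (317 tested). The share was thus highest at Dab2 and lowest at Col4a1/Col4a2.

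The 3 bins with the largest difference in that direction lay in the gap of the RA H3K4me1 domains at Col4a1/Col4a2. At chr8:11312201-11312400 the libraries labelled H3K4me1 held 63 and 110 counts and neither library labelled H3K27ac listed the bin (adjusted p = 0.00174). At chr8:11313001-11313200 the counts were 50 and 193 against 6 and 5 (adjusted p = 0.00481), and at chr8:11312401-11312600 they were 57 and 95 against an unlisted bin and 8 (adjusted p = 0.00398). The tested library pairs did not overlap in any of the 3 bins, which follows largely from choosing called bins with the largest differences.

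In the other direction, the 3 bins with the largest differences also lay at Col4a1/Col4a2, outside that gap. At chr8:11369201-11369400 the libraries labelled H3K27ac held 39 and 34 counts and neither library labelled H3K4me1 listed the bin (adjusted p = 0.0236). At chr8:11370001-11370200 the CPM was 4.88 and 3.96 against 0.494 and 0.637 (log2 difference 2.31, adjusted p = 0.00877). At chr8:11267201-11267400 it was 3.52 and 4.05 against 0.494 and 0.510 (log2 difference 2.29, adjusted p = 0.00979).

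Methylation of the windows was higher in RA cells than in ESCs in the H3K4me1 libraries and about level in the H3K27ac libraries. Over all 3 windows, 5mC of H3K4me1 was 41.0% (exact 95% interval 40.4 to 41.6%) in ESCs and 62.6% (62.3 to 62.9%) in RA cells. 5mC of H3K27ac was 49.2% (48.1 to 50.2%) in ESCs and 49.7% (49.3 to 50.1%) in RA cells. The intervals cover counting error only. The whole libraries went from 38.6% to 54.8% for H3K4me1 and from 33.0% to 38.7% for H3K27ac.

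By window, 5mC of H3K4me1 went from 40.5% to 60.6% at Lama1, from 40.3% to 63.1% at Col4a1/Col4a2 and from 48.7% to 64.8% at Dab2. 5mC of H3K27ac went from 53.1% to 50.5% at Lama1, from 47.1% to 49.6% at Col4a1/Col4a2 and from 46.8% to 48.0% at Dab2. The ESC values of H3K27ac rest on thin coverage spread over many bins, since only 19 bins of the 3 windows held at least 30 counts in that library. Over the 19 bins covered in both states the median difference was 0.263 percentage points.

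In XEN cells, the libraries labelled H3K4me1 had 65.0% and 64.6% 5mC over the 3 windows and those labelled H3K27ac 69.9% and 69.5%. The whole XEN libraries had 47.9% and 49.2% under the first label and 61.5% in both under the second. In the windows the 2 labels did not overlap, with a difference of -4.90 percentage points (H3K4me1 minus H3K27ac). The sign of this difference changes with the file-name marks, and 2 libraries against 2 cannot go below p = 0.333 in the two-sided exact permutation test, which was the value found. At Lama1 the means were 65.5% ± 0.0741 and 68.8% ± 0.0151 (SD, n = 2), at Col4a1/Col4a2 65.0% ± 0.0952 and 70.0% ± 0.463, and at Dab2 62.9% ± 2.35 and 69.6% ± 0.813. All XEN values were above those of both ESC libraries.

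**Figure D3:**
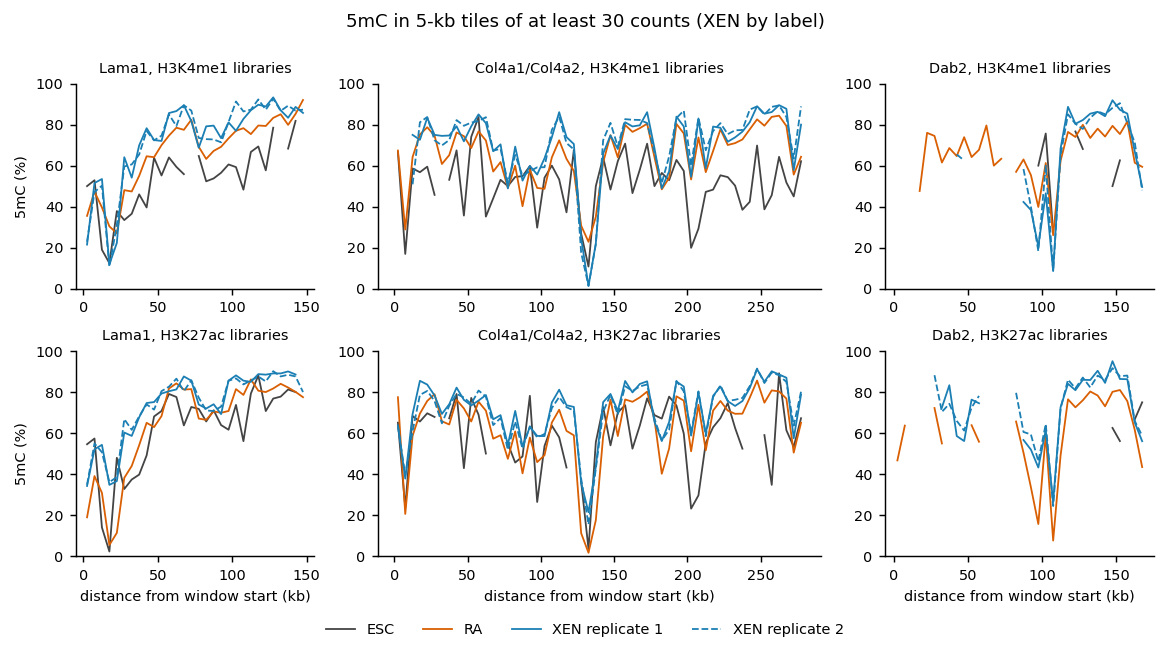
5mC (%) in 5-kb tiles of at least 30 CpG counts, by distance from the window start (kb), for libraries labelled H3K4me1 (top) and H3K27ac (bottom), with 1 line per library. Each window dips at 1 or more tiles, such as 132.5 kb at Col4a1/Col4a2, where 5mC was 1.59% in RA H3K27ac and 22.8% in RA H3K4me1.

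Low methylation was gathered in short runs of bins. A run was defined as 2 or more bins under 20% 5mC in the H3K27ac library of RA cells, each of at least 30 counts and at most 1 bin apart, so the low value of that library is fixed by the definition. There were 11 runs: 5 at Lama1 (10.0 kb in all), 3 at Col4a1/Col4a2 (9.6 kb) and 3 at Dab2 (3.2 kb). They held 23.9%, 21.5% and 24.7% of the H3K27ac counts of their windows in RA cells, and 10.7%, 2.58% and 6.21% of the H3K4me1 counts. The minimum of 30 counts applied to the H3K27ac library of RA cells alone, so this contrast is in part built in. In ESCs, whose libraries did not enter the choice, the runs held 18.2%, 18.7% and 29.4% of the H3K27ac counts. For H3K4me1 of ESCs the shares were 24.3%, 13.96% and 25.3%, so H3K27ac had the smaller share at Lama1.

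The widest runs were low in 5mC already in ESCs. The 6.8-kb run at chr8:11307401-11314200, over Col4a1/Col4a2, had 3.8% 5mC in H3K27ac and 13.7% in H3K4me1 of ESCs, and 16.2% in H3K4me1 of RA cells. The 6.4-kb run at chr17:68045801-68052200, in the Lama1 window, had 4.59% and 20.7% in ESCs and 23.4% in H3K4me1 of RA cells. The 1.8-kb run at chr15:6336201-6338000, in the Dab2 window, had 4.7% and 17.1% in ESCs and 12.6% in H3K4me1 of RA cells.

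Some other runs were methylated in ESCs and lower in RA and XEN cells. At chr15:6324801-6325800, in the Dab2 window, 5mC was 58.7% in H3K4me1 and 48.6% in H3K27ac of ESCs, 9.26% in H3K4me1 of RA cells, and between 0 and 2.81% in the 4 XEN libraries. At chr17:68034201-68035200, in the Lama1 window, it was 60.6% and 42.1% in ESCs, 14.2% in H3K4me1 of RA cells, and between 5.88% and 9.42% in XEN libraries. At chr8:11314601-11316400, beside the wide Col4a1/Col4a2 run, it was 56.8% and 63.0% in ESCs, 23.8% in H3K4me1 of RA cells, 7.26% and 10.8% in the XEN libraries labelled H3K4me1, and 37.2% and 26.3% in those labelled H3K27ac. ESC counts in these runs were low, from 19 to 146 per library. Not all runs did this: at chr17:68053001-68053600, in the Lama1 window, 5mC was 43.2% and 46.7% in ESCs and 31.8% to 49.5% in the XEN libraries. At chr17:68043401-68044400, also at Lama1, it was 14.2% and 10.2% in ESCs and 16.2% to 25.8% in the XEN libraries.

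**Figure D4:**
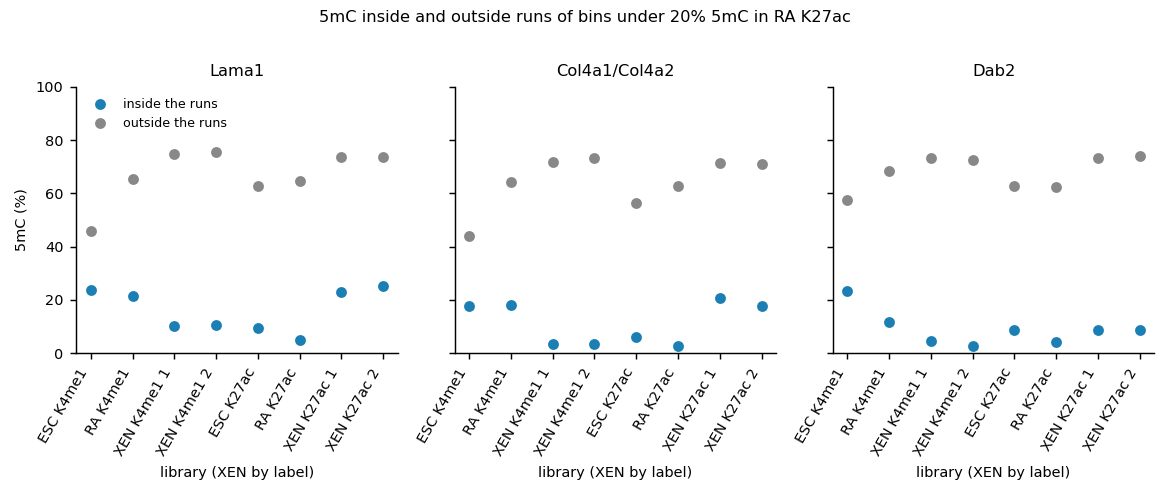
5mC (%) of each of the 8 libraries inside the runs (blue) and in the rest of the window (grey), for the 3 windows. Every library lies lower inside the runs, by definition in RA H3K27ac, and the rest of each window lies between 44.0% and 75.5%.

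Inside the runs, the XEN libraries fell into the same order at each window. Those labelled H3K4me1 had 10.3% and 10.5% 5mC at Lama1, 3.58% and 3.37% at Col4a1/Col4a2 and 4.46% and 2.85% at Dab2. Those labelled H3K27ac had 23.0% and 25.1%, 20.8% and 17.6%, and 8.76% and 8.85%. In ESCs the H3K27ac library was the lower of the 2 marks, with 9.61% against 23.8% at Lama1, and in RA cells its low value is set by the definition of a run.

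Per bin, RA cells were compared with ESCs by Fisher's exact test on methylated and unmethylated counts, with at least 30 counts in both libraries and a peak of the mark in either state. Such a test compares 2 libraries and not 2 conditions. For H3K4me1, 184 bins of the windows were tested over 204685 in the genome. Of these, 82 were higher in RA cells at an adjusted p under 0.05 (44.6%, against 47.8% of all bins) and 11 were lower (5.98%, against 1.84%). Col4a1/Col4a2 had 56 higher and 3 lower of 98, Lama1 26 and 8 of 79, and Dab2 0 and 0 of 7. Of the 11 that were lower, 10 lay inside the runs, where 37 bins were tested, and of the 82 that were higher, 80 lay outside. The runs were chosen for low 5mC in RA cells after values were seen, so this split follows in part from their definition.

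The largest gains of 5mC lay at Col4a1/Col4a2. At chr8:11340601-11340800 5mC was 25.8% of 31 counts in ESCs and 90.0% of 30 counts in RA cells (adjusted p = 3.28e-06). At chr8:11383401-11383600 it was 16.7% and 80.7% (adjusted p = 2.38e-10), and at chr8:11385001-11385200 it was 19.1% and 81.8% (adjusted p = 2.81e-08). The latter 2 bins lay under the highest-scoring ESC peaks of both marks in that window.

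The largest losses lay at Lama1. At chr17:68051601-68051800 5mC fell from 48.8% of 43 counts in ESCs to 5.68% of 88 counts in RA cells (adjusted p = 2.99e-07). At chr17:68032601-68032800 it fell from 51.4% to 15.3% (adjusted p = 0.000784), and at chr17:68053001-68053200 from 62.8% to 29.4% (adjusted p = 0.00125). All 3 were inside runs of low methylation in the H3K27ac library.

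For H3K27ac, 19 bins could be tested, 2 were higher in RA cells, against 13.8% of all bins, and 0 were lower, against 1.06%. At chr8:11227201-11227400, in the Col4a1/Col4a2 window, 5mC was 9.38% of 32 counts in ESCs and 66.0% of 50 in RA cells (adjusted p = 6.73e-06). At chr17:68044801-68045000, in the Lama1 window, it was 2.33% of 43 counts and 51.0% of 102 (adjusted p = 5.83e-08). Both bins lay outside the runs.

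The 2 marks of 1 cell state were compared in bins under peaks of both. In ESCs 13 bins were tested, with 0 different in either direction, against 0.0692% of all bins higher in H3K4me1 and 0.00973% lower. In RA cells 530 bins were tested and 9 were higher in H3K4me1, against 0.801%, and 0 were lower, against 0.0126%. All 9 lay in the runs, which were defined by the low 5mC of the H3K27ac library, so their place is fixed in part by that choice. The medians over the 530 bins were 63.7% in H3K4me1 and 61.5% in H3K27ac.

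At chr17:68048601-68048800, in the Lama1 window, 5mC was 46.7% of 30 H3K4me1 counts and 1.09% of 92 H3K27ac counts of RA cells (adjusted p = 7.49e-06). At chr17:68049201-68049400 it was 43.1% of 58 and 2.74% of 146 (adjusted p = 2.61e-08). At chr8:11314801-11315000, in the Col4a1/Col4a2 window, it was 41.8% of 55 and 6.48% of 216 (adjusted p = 4.86e-06).

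The same Col4a1/Col4a2 bin was the 1 bin of 86 that differed between the labels in XEN cells by edgeR's quasi-likelihood test, against 1.27% of 14551 bins higher in the libraries labelled H3K27ac. 0 of the 86 were lower, against 0.0137%, with 6 higher and 2 lower at an unadjusted p under 0.05, and with 3 higher and 0 lower by Fisher's exact test on summed counts. Its 5mC was 3.51% and 5.80% in the libraries labelled H3K4me1 and 50.9% and 25.0% in those labelled H3K27ac (adjusted p = 0.000503). The library pairs did not overlap, which is likely in any called bin, and their order was opposite to that of the marks in RA cells. With any 1 of the 4 libraries left out, the lone library of a label is assumed to vary like the other label, calls of higher bins over the genome went from 185 to between 4 and 6, and this bin was not called either.

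XEN cells were compared with ESCs and RA cells by Fisher's exact test on the summed replicates, with both replicates on the same side. The replicates differed by more than sampling noise, which these p-values do not include. By label, 76 of 152 bins were higher than in ESCs for H3K4me1, against 53.9%, and 15 were lower, against 3.76%. All 15 that were lower lay inside the runs, where 44 bins were tested, with the same limit. With XEN replicate 1 or replicate 2 left out, which lowers the coverage and the number of bins tested, 20 to 23 were higher and 5 to 7 lower. With the file-name marks, 134 of 204 were higher, against 72.2%, and 9 were lower, against 1.48%. For H3K27ac by label, 4 of 7 were higher than in ESCs, against 67%, and 0 lower, against 0.357%, and with the file-name marks 3 of 18 were higher, against 25.4%, and 1 lower, against 1.28%.

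Among the bins that were lower than in ESCs by label, chr15:6337801-6338000, in the Dab2 window, went from 41.2% of 34 counts to 0% of 49 in the libraries labelled H3K4me1 (exact 95% interval 0 to 7.25%, adjusted p = 2.40e-06). At chr17:68032601-68032800, in the Lama1 window, 5mC was 51.4% and 9.52% (adjusted p = 5.27e-06), and at chr8:11310801-11311000, in the Col4a1/Col4a2 window, 41.0% and 1.16% (adjusted p = 5.29e-08). By label each window thus held a bin that was lower than in ESCs, while with the file-name marks 0 bins were lower at Dab2 for either mark. The gains were led by Col4a1/Col4a2, with 15.1% in ESCs and 91.9% in XEN cells at chr8:11244401-11244600 (adjusted p = 1.42e-12).

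Against RA cells, 15 of 564 bins were higher and 11 lower for H3K4me1 by label, against 4.73% and 1.81%. With the file-name marks 92 of 1055 were higher and 3 lower, against 13.5% and 0.556%. For H3K27ac by label 110 of 563 were higher and 0 lower, against 27.6% and 0.327%, and with the file-name marks 16 of 450 were higher and 0 lower, against 5% and 0.364%. With XEN replicate 1 or 2 left out, 2 to 5 were higher and 3 to 5 lower for H3K4me1 by label, and without replicate 2 the 110 became 68. The share of higher bins in the windows was below that of the genome for both marks under both pairings. The median difference was above that of the genome for H3K4me1 by label (5.02 and 2.51 points) and H3K27ac by file name (5.77 and 0.392). It was below for H3K4me1 by file name (6.46 and 7.89) and H3K27ac by label (8.07 and 9.75). The H3K4me1 bins tested by label had a median of 68.4% in RA cells, against 48.6% over the genome. For H3K4me1 at Dab2, 2 of 70 bins were higher and 3 lower by label, and 9 and 0 of 131 by file name.

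The bins with the most counts show the range of these patterns. At chr8:11311801-11312000, in the Col4a1/Col4a2 window, 5mC was at most 8.91% in the libraries of ESCs, and the RA H3K27ac library held 500 counts at 1.2% against 33 counts at 24.2% in H3K4me1. The XEN libraries labelled H3K4me1 held 114 and 159 counts, at 0.877% and 0.629%, the first library labelled H3K27ac held 18 and the second did not list the bin. It was the bin with the highest mean CPM of the collagen window.

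At chr8:11360201-11360400, also in the Col4a1/Col4a2 window, ESCs held 3 and 5 counts in H3K4me1 and H3K27ac, RA cells 140 and 186, and XEN libraries from 114 to 213. 5mC of the RA and XEN libraries lay between 28.9% and 38.0%. At chr8:11268601-11268800 it lay between 45.9% and 66.0% in the same libraries, with 37 to 294 counts. In ESCs the former bin was at 66.7% of 3 counts and 80% of 5, too few to set against the later values.

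At Lama1, the bin at chr17:68034401-68034600 held 11 H3K4me1 and 10 H3K27ac counts in ESCs, at 72.7% and 40% 5mC. RA cells held 209 counts at 16.7% and 282 at 7.45%, and the XEN libraries held 77 to 182 counts at 5.19% to 7.14%. At chr17:68057401-68057600 5mC went the other way: 17.6% and 11.5% in ESCs, 49.7% and 36.4% in RA cells, and 66.0% to 76.4% in XEN libraries. At chr17:68045801-68046000 it was 16.7% and 6.06% in ESCs and 33.3% to 38.6% in XEN libraries.

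At Dab2, the bin at chr15:6325001-6325200 held 63.0% 5mC in H3K4me1 and 42.9% in H3K27ac of ESCs, 8.40% and 3.69% in RA cells, and between 0 and 5.68% in XEN libraries. At chr15:6336401-6336600 5mC was at most 7.69% in every library. At chr15:6396801-6397000 ESCs held 3 and 2 counts, and 5mC of the RA and XEN libraries lay between 40.4% and 59.8%. The window thus held a bin of low methylation in all 3 cell states, a bin methylated in ESCs and low in RA and XEN cells, and a bin of intermediate methylation.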

How the data were processed

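Bisulfite-sequenced ChIP reads of H3K4me1 and H3K27ac had been aligned by the authors with Bismark and Bowtie to mm9 and reads of mixed methylation removed; versions are not given in the sources used here. The deposited files hold methylated and unmethylated CpG counts per 200-bp bin, not normalized, and HOMER peaks with their deposited score, called without the local and clonal filters. The 6 other samples of the series were not analysed here. Members, windows and lists were chosen with earlier results of these data known.

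CpG counts were scaled to 1000000 per library (CPM; totals 12147115 to 58803653). Bins of at least 30 counts were tested by Fisher's exact test, two-sided, with Benjamini-Hochberg adjustment over all tested bins of the genome (adjusted p under 0.05). XEN labels were compared with edgeR's quasi-likelihood test (edgeR 4.0.16, R 4.3.3), with TMM factors for occupancy. Intervals are exact (Clopper-Pearson, 95%). Other steps used Python 3.11.15, scipy 1.17.1 and DESeq2 1.42.0. Fisher's exact test and the edgeR tests were first run on simulated data. The permutation test, DESeq2 and the rule that both XEN replicates lie on the same side were not. XEN replicates differed by more than sampling noise (chi-square per degree of freedom 4.66 and 2.66). They were kept apart in comparisons between the labels and summed for Fisher's exact test against ESCs and RA cells, whose p-values leave out that spread. Alternatives covered coverage minimums of 20 and 60, scaling, the filter on low counts, left-out replicates, a replicate block and marks taken from file names. Named bins were the 3 with the highest mean CPM per window and the called bins with the largest differences, up to 3 per direction. Runs of low methylation were defined after values were seen and were not tested.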

Additional observations from a re-analysis of the deposited data

Results flagged for a closer look

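At the Lama1 window, the change of 5mC from ESCs to RA cells went in opposite directions in the libraries of the 2 marks. It was 20.1 percentage points in the H3K4me1 library and -2.58 points in the H3K27ac library. Outside the runs of low methylation, 5mC went from 45.9% to 65.4% for H3K4me1 and from 62.8% to 64.8% for H3K27ac. Inside them it went from 23.8% to 21.3% and from 9.61% to 4.97%, the last value low by definition. The share of H3K27ac counts inside the runs was 18.2% in ESCs and 23.9% in RA cells. The RA share is set in part by the minimum of 30 counts, which applied to that library alone. Bins of at least 30 counts in each library give 40.03 points for H3K27ac, but they set 5 bins of ESCs against 210 of RA cells and so are not a change of the same bins. In the 5 bins covered in both states the median difference was 0.901 points. With 1 library per mark and state, the difference between these changes was not tested.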

How the results depend on the processing

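The direction of RA over ESC and of XEN over ESC occupancy over the 3 windows did not change under the alternatives run, while XEN over RA did. Of the summary values, 55 alternatives gave about the same value, 76 moved it and 3 reversed it. For single windows these numbers were 51, 60 and 9. The cause was not tested except where the alternative itself lowers the number of bins or libraries. With a minimum of 20 CpG counts, H3K4me1 calls were 17 lower for RA against ESC and 136 higher and 25 lower for XEN against ESC, and H3K27ac calls were 9 higher and 1 lower for RA against ESC, 16 higher and 1 lower for XEN against ESC, and 1 lower for XEN against RA. With a minimum of 60, which leaves fewer bins, H3K4me1 calls were 23 higher and 2 lower, 10 higher and 4 lower, and, for XEN against RA, 3 lower. H3K27ac calls were then 0 higher for both RA and XEN against ESC and 55 higher for XEN against RA, and 4 bins were higher in H3K4me1 than in H3K27ac of RA cells. Between the XEN labels, 5mC gave 3 calls at a minimum of 20, 0 at 60, 3 by Fisher's exact test on summed counts, and 0 to 0 without each library. Without each XEN replicate, the H3K4me1 calls were 20 to 23 higher and 5 to 7 lower against ESC and 2 to 5 higher and 3 to 5 lower against RA, and the H3K27ac calls against RA were 68 to 75 higher and 0 to 1 lower. With marks from file names, H3K4me1 calls were 134 higher and 9 lower against ESC and 92 higher and 3 lower against RA, and H3K27ac calls were 1 lower against ESC and 16 higher against RA.

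For XEN occupancy, the fit with the replicate number as a block gave 0 bins higher and 17 lower, against 32 and 58 without it, and 1 5mC call between the labels, as without it. The numbers do not pair the samples: deviations from the label means correlated at -0.00819 for counts and -0.00932 for 5mC over 14551 bins. Library totals gave 246 higher and 34 lower, a summed minimum of 30 gave 12 and 25, all listed bins gave 350 and 54, and DESeq2 gave 5 and 30. Without each library the higher calls ranged from 0 to 74 and the lower from 13 to 77.

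On the log2 scale over the 3 windows, scaling by the median ratio gave 2.02, 0.80 and -0.87 for H3K4me1 (RA over ESC, XEN over ESC, XEN over RA) and 2.97, 3.78 and 0.38 for H3K27ac. Totals over bins of at least 4 counts, an alternative chosen after seeing the data, gave 2.31, 2.29 and -0.022 for H3K4me1 and 3.65 and 0.55 for XEN over ESC and RA in H3K27ac. Without the minimum of 4 counts the ratios over ESC were 2.20 and 2.30 for H3K4me1 and 2.75 and 3.56 for H3K27ac. File-name marks gave 3.04 and 0.76 for H3K4me1 and 3.28 and 0.17 for H3K27ac over ESC and RA. Single windows reversed for XEN over RA: Lama1 at 0.38 (H3K4me1, file names), -0.13 (H3K27ac, median scaling) and -0.14 (H3K27ac, file names), Col4a1/Col4a2 at -0.79 and Dab2 at -0.84 (H3K4me1, median scaling), and Dab2 at -0.056 (H3K27ac, median scaling).

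Bins of at least 30 counts were chosen in each library by itself, so the values that follow compare different bins (for H3K27ac 19 in ESC and 600 in RA, for H3K4me1 223 and 1091) and are not changes of the same bins. The 5mC difference of RA minus ESC was 33.6 points for H3K4me1 and 37.8 for H3K27ac. H3K4me1 minus H3K27ac was 25.8 in ESC, with the sign reversed, 21.5 in RA and -18.7 in XEN. In bins covered in both libraries the median difference was 17.6 points for RA minus ESC in H3K4me1 (184 bins), 0.263 in H3K27ac (19 bins), and 0 between the marks in ESC (13 bins) and 2.10 in RA (530 bins). The same setting reversed RA minus ESC of H3K27ac at Lama1 (40.03) and the marks of ESC at Lama1 (29.0) and Col4a1/Col4a2 (24.5), with 19 such bins in the ESC H3K27ac library.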

Other observations

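Inside the Dab2 runs 5mC was 23.3% in H3K4me1 of ESCs, 11.8% in H3K4me1 of RA cells and 2.85% to 8.85% in the XEN libraries, and outside the runs it was 57.4%, 68.3% and 72.5% to 74.2%. The smallest Dab2 run, at chr15:6395801-6396200, held 2 H3K4me1 and 4 H3K27ac counts in ESCs, 160 and 150 in RA cells and 71 to 151 in the XEN libraries. Whether the runs overlap promoters or other annotated elements was not tested.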
